A study of Mus musculus with 33 samples.

Results

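Proteasome subunit genes were followed in lymphoid organs of tumour-free C57Bl/6 mice given nicotinamide (NAM, a form of vitamin B) in the drinking water. The proteasome is the protease that degrades ubiquitin-tagged proteins. Its barrel-shaped core is built of outer rings of alpha subunits and inner rings of beta subunits, some of which carry the catalytic sites, and a regulatory cap with a ring of ATPases unfolds substrates and feeds them in. In lymphoid organs the core is known for cutting peptides that are presented on MHC class I, a task served in particular by the immunoproteasome, in which the catalytic beta subunits are exchanged for inducible ones, and by the activator made of Psme1 and Psme2.

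The members are all genes whose symbol begins with Psma, Psmb, Psmc, Psmd, Psme, Psmf or Psmg followed by a number, without Psmb8 and Psmb9. This rule uses names only and found 46 genes among 56414 rows of the expression table, of which 36109 had reads. They comprise 8 alpha subunits, 9 beta subunits, 6 ATPases, 11 other cap subunits, 7 assembly chaperones and 5 activators or inhibitors. Psmb11, the beta subunit of the thymus cortex, had 0 reads in all 33 libraries, which allows up to 3 reads per library (counting error only). The other 45 members had a mean normalised count of at least 10 under both tissue labels and were tested. Of these, Psma8, a testis alpha subunit, lay near that minimum, and the remaining 44 had at least 321 reads in every library.

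Bulk RNA of removed organs was sequenced from untreated mice and from mice that drank 0.5% NAM for 1, 3 or 14 days, and all animals shared the C57Bl/6 background. The labels describe fresh extraction from the organs, and the methods of the study speak of tissues that were stabilised before RNA extraction. Its results speak of cells of spleen and lymph node, so whether intact tissue or isolated cells were lysed is uncertain. The libraries labelled spleen numbered 5 per group, and of those labelled lymph node 3 were untreated, 2 came from day 1, 4 from day 3 and 4 from day 14. Nothing in the labels says that replicates are separate animals, so p-values measure only the spread between these libraries, which may be technical. Values are normalised read counts, in which the reads of a gene are divided by a size factor of the library, and log2 fold changes are on the log2(value + 1) scale with their standard error.

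The tissue labels disagreed with defining markers. Glycam1, an adhesion ligand of lymph node venules, stood at 108167 to 214210 normalised counts in the libraries labelled spleen and at 1.59 to 12.4 in those labelled lymph node. Spic, the regulator of splenic red pulp macrophages, stood at 774 to 1295 and at 6117 to 10491, respectively. The groups are therefore called by their label throughout. The depth was 18325061 to 54830743 reads in libraries labelled spleen, and it was 30424968 to 46733974 reads in those labelled lymph node. Under the spleen label, all 5 libraries at 3 days, with at least 43632016 reads, were deeper than the untreated libraries and those at 1 day, which had at most 32066627. Replicate 1 at 3 days stood apart from its group in the members and in its share of mitochondrial reads, which was 14.0% against 5.95% to 8.29% in the other 4, so counts and named values of the members at 3 days are given with and without it. Under the lymph node label, replicate 1 of the 2 libraries at 1 day held 78837 normalised counts over 6 exocrine pancreas genes, against 2.24 in the other.

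The bases upstream of the gene start are shown for members on which the results turn, because they differ in which short motifs they hold. Each stretch is the 150 bases before the start in the RefSeq promoter table (GRCm38.p6), written 5′ to 3′ on the strand of the gene. Capitals mark a match, on either strand, to CCGGAAG (an ETS-type site) or TGACNNNGC (the core of an antioxidant response element). CCAAT and TTCNNNGAA, in which N is any base, were also searched on both strands, and matches to different motifs could overlap.
Psmd6, chr14:14120946-14121095, minus strand: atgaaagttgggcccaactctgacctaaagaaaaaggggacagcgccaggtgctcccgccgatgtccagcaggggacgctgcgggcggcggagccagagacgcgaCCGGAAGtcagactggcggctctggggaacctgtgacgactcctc
Psmd2, chr16:20651502-20651651, plus strand: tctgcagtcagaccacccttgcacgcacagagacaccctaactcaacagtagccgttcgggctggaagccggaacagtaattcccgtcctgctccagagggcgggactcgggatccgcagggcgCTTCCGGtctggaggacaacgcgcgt
Psmb5, chr14:54617996-54618145, minus strand: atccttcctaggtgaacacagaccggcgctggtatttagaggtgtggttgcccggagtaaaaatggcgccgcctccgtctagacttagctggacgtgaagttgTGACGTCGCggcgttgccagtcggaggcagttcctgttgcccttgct
Psmb4, chr3:94886959-94887108, minus strand: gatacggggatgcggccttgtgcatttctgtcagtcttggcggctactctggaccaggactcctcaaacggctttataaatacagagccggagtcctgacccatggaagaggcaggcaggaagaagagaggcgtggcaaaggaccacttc
Psmd8, chr7:29180674-29180823, minus strand: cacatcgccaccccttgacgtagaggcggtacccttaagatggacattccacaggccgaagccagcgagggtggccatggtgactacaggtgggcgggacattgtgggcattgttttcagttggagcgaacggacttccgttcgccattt

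Promoters of 300 bases, reaching 50 bases past the start, were in that table for 38 of the 46 members, with 41 promoters. The ETS-type letters CCGGAAG stood in 15 of these 41, or 36.6%, against 8.86% of 32851 promoters of all genes. CCAAT stood in 31.7% of member promoters against 37.4% of all, TGACNNNGC in 14.6% against 12.4%, and TTCNNNGAA in 4.88% against 8.30%. Of the 16 members in the table that passed the test at 1 day under the spleen label, 4 held CCGGAAG, and of the other 22, which include the untested Psmb11, 10 held it. A match is a run of letters and not a site shown to be bound.

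After 1 day of NAM, 17 of the 45 members rose and 2 fell in the libraries labelled spleen (limma, Benjamini-Hochberg adjusted over 18243 genes, threshold 0.05), and 26 did not pass the test. Over all genes tested, 8.56% were called higher and 8.05% lower, so that the 37.8% of members called higher lay above the background of that direction and the 4.44% called lower lay under it. The median log2 fold change was 0.22 over the members and 0.01 over all genes, and 39 members had a positive value. The values were unequal, from -0.29 for Psmb2 to 0.72 for Psmd6. In 13 members all treated libraries lay above all untreated ones, which held for 6.42% of genes, and in 1 they lay under them, against 5.47% of genes. In bulk RNA fewer cells of a type and less RNA per cell cannot be told apart.

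**Figure D1:**
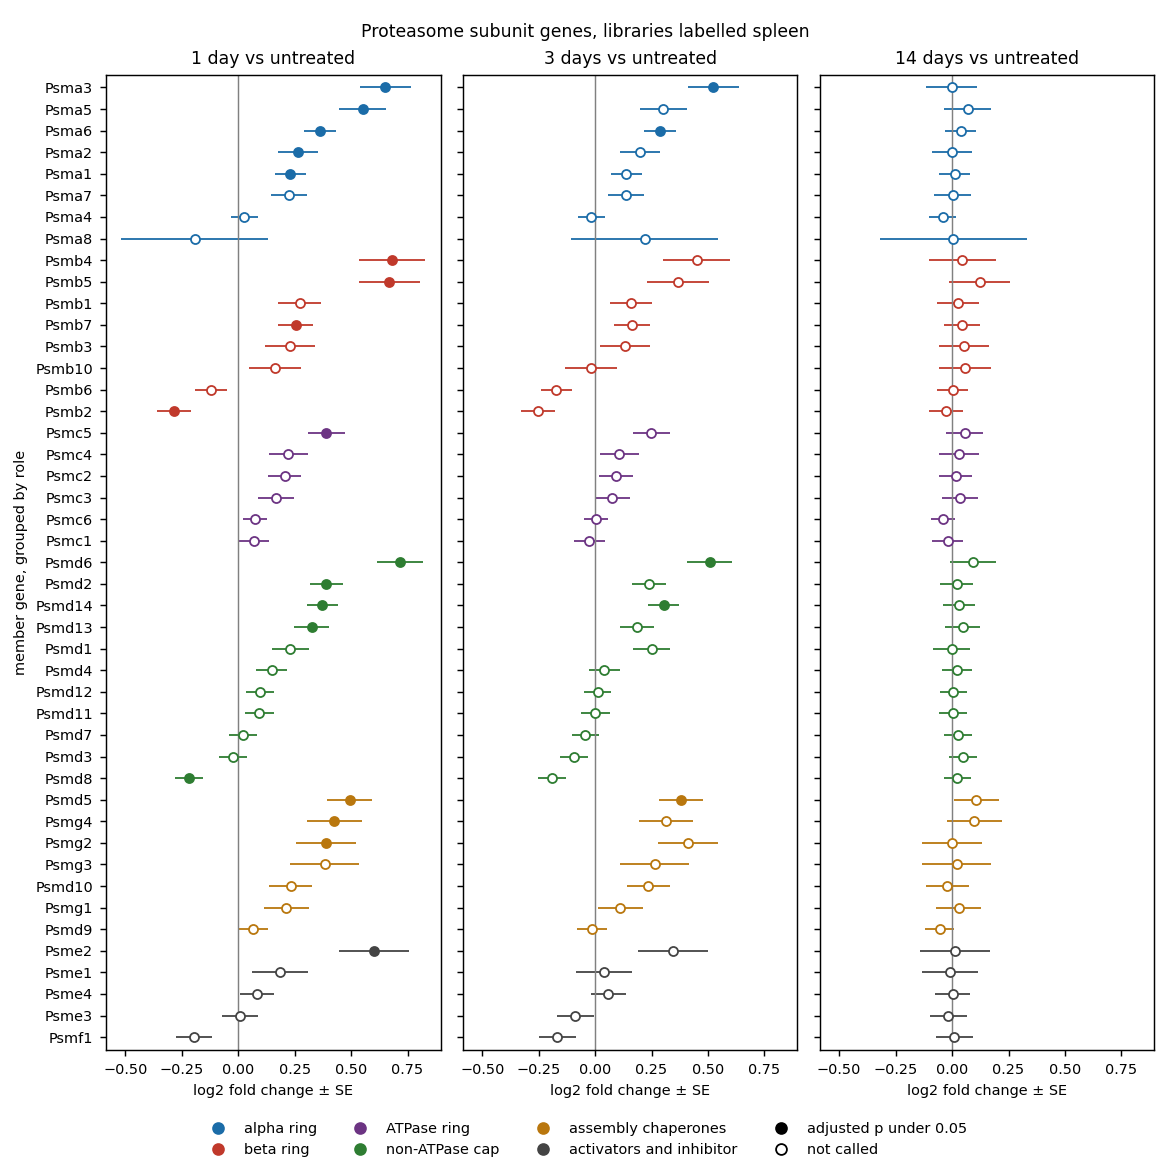
Log2 fold change (x axis, with its standard error) of the 45 tested members (y axis, grouped by role) against untreated, in the libraries labelled spleen at 1, 3 and 14 days (n = 5 per group). Filled points passed an adjusted p of 0.05, which holds for 19 members at 1 day, 5 at 3 days and 0 at 14 days.

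The alpha ring, which gates the core, had 5 of 8 genes higher (Psma1, Psma2, Psma3, Psma5 and Psma6), with a median of 0.25. Psma3 stood at 727, 629, 869, 724 and 695 normalised counts in the 5 untreated libraries and at 1087, 1275, 1139.7, 1171 and 1039 at 1 day. All treated libraries lay above all untreated ones. Its log2 fold change was 0.65 ± 0.11 with a limma adjusted p of 0.00116. The counts of Psma5 were 599, 529.8, 614, 526 and 498 untreated and 727, 833, 834, 807 and 846 at 1 day, again without overlap, and it changed by 0.55 ± 0.10 with a limma adjusted p of 0.00204. Psma8 had a log2 fold change of -0.19 ± 0.33 (limma adjusted p of 0.728), the widest error of the members tested, at 13.9, 11.3, 29.7, 12.4 and 22.7 normalised counts in the untreated libraries.

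The beta ring was divided. Psmb4, Psmb5 and Psmb7 rose, Psmb2 fell, and 4 of the 8 tested did not pass. Psmb4, a beta subunit without catalytic activity, stood at 3674, 3453, 4255, 3593 and 3573 in the untreated libraries and at 5193, 6467, 6236, 5646 and 6215 at 1 day. The groups did not overlap, and the log2 fold change was 0.68 ± 0.15 with a limma adjusted p of 0.00455. Psmb2, another structural beta subunit, stood at 5446, 5218, 5874, 4696 and 4761 untreated and at 3739, 4877, 4278, 4182 and 4245 at 1 day. Here 4 of the 5 treated libraries lay under all untreated ones, and the log2 fold change was -0.29 ± 0.08 with a limma adjusted p of 0.0144.

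Of the constitutive catalytic subunits, Psmb5 carries the chymotrypsin-like site, Psmb7 the trypsin-like site and Psmb6 the caspase-like site. Psmb5 stood at 1673, 1773, 1949, 1671 and 1533 in the untreated libraries and at 2328, 3337, 2883, 2458 and 2743 at 1 day. No treated library fell within the untreated range, and the log2 fold change was 0.67 ± 0.14 with a limma adjusted p of 0.00303. Psmb7 stood at 3567, 3225, 3574, 3069 and 3229 untreated and at 3549, 4820.4, 4107, 3740.1 and 3742 at 1 day, with a log2 fold change of 0.25 ± 0.08 at a limma adjusted p of 0.0322. That call was lost without untreated replicate 2, 4 or 5 and without replicate 2 or 3 at 1 day, and the calls of Psma1, Psma2, Psmg2 and Psmg4 were likewise lost without some single libraries, untreated replicates 4 and 5 among them. Psmb6 did not pass. Its counts were 6316, 5546, 6313, 5494 and 5377 untreated and 4754, 5944, 5409, 4793 and 5882 at 1 day, in overlapping ranges, and the log2 fold change was -0.12 ± 0.07 with a limma adjusted p of 0.254.

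Psmb10, the inducible subunit that replaces Psmb7 in the immunoproteasome, stood at 4758, 4205, 4775, 4108 and 3566 untreated and at 4353, 4494, 4958, 4407 and 5768 at 1 day. The ranges overlapped, and the log2 fold change of 0.16 ± 0.11 did not pass (limma adjusted p of 0.349, 95% interval from -0.08 to 0.40). Its inducible partners Psmb8 and Psmb9, which are not members, had log2 fold changes of 0.09 ± 0.12 and 0.25 ± 0.13 (limma adjusted p of 0.647 and 0.176).

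In the ATPase ring, Psmc5 was the single gene of 6 to pass, at 0.39 ± 0.08 (limma adjusted p of 0.00356). Among the 11 other cap subunits 4 rose and 1 fell. Psmd6, a subunit of the lid of the cap, had the largest log2 fold change of all members. Its counts were 1565, 1562, 1707, 1348 and 1429.5 untreated and 2326, 2579, 2539, 2482 and 2559 at 1 day. All treated libraries lay above all untreated ones. The means were 1522 ± 138 and 2497 ± 102 (SD, n = 5), a log2 fold change of 0.72 ± 0.10 at a limma adjusted p of 0.000379.

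Psmd2, a scaffold and ubiquitin receptor at the base of the cap, stood at 6988, 6743, 7331, 6859.6 and 6590.4 untreated and at 8183, 9927, 9404, 8851 and 8909.8 at 1 day (0.39 ± 0.07, limma adjusted p of 0.00197). Psmd14, the deubiquitinase that removes ubiquitin chains from arriving substrates, stood at 2639, 2479.8, 2616, 2460.5 and 2265 and at 2929.7, 3513, 3222, 3335 and 3134 (0.37 ± 0.07, limma adjusted p of 0.00176). Both rose. Psmd4, another ubiquitin receptor, had 0.15 ± 0.07 and did not pass (limma adjusted p of 0.144).

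Psmd8, also of the lid, fell. Its counts were 4547, 3984, 4596, 3962 and 3893 untreated and 3446, 3762, 3617, 3412 and 3767 at 1 day. All 5 treated libraries lay under all untreated ones, and the log2 fold change was -0.22 ± 0.06 with a limma adjusted p of 0.0181. The call of Psmd8 was lost without untreated replicate 1, and those of Psmd8 and Psmb2 were lost in a fit of the untreated and 1-day libraries alone.

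The assembly chaperones, which hold subunits together during building and leave the finished particle, had a median of 0.38, and 3 of the 7 rose. Psmd5, a chaperone of the ATPase ring, stood at 996, 999, 1152, 944 and 898 untreated and at 1416, 1432, 1421, 1330.5 and 1404 at 1 day, with a log2 fold change of 0.49 ± 0.10 (limma adjusted p of 0.00271). Psmg4 and Psmg2, which serve assembly of the alpha ring, rose by 0.43 ± 0.12 and 0.39 ± 0.13 (limma adjusted p of 0.0208 and 0.0493). Psmg3, the partner of Psmg4, had 0.38 ± 0.15 and Psmg1, the partner of Psmg2, had 0.21 ± 0.10, and neither passed (limma adjusted p of 0.0935 and 0.155). The ATPase ring chaperones Psmd10 and Psmd9 had 0.23 ± 0.09 and 0.07 ± 0.07 (limma adjusted p of 0.0991 and 0.527). Psmg3 was called with library weights or only the groups compared, and Psmd10 with library weights or without untreated replicate 3.

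Of the activators and the inhibitor, Psme2 was the single gene of 5 to pass. Its counts were 2454, 1971, 2289.8, 2039 and 1601 untreated and 2699.7, 2862, 3266, 2933 and 3943 at 1 day, without overlap, and the log2 fold change was 0.60 ± 0.16 (limma adjusted p of 0.0125). Psme1, with which it forms the interferon-inducible activator ring, had 0.18 ± 0.12 (limma adjusted p of 0.328). The activators Psme3 and Psme4 had 0.01 ± 0.08 and 0.08 ± 0.08 (limma adjusted p of 0.958 and 0.494). Psmf1, a proteasome inhibitor, had -0.20 ± 0.08 (limma adjusted p of 0.102).

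Some of these genes share sequence with others. Transcripts of 9 members (Psma3, Psma4, Psma5, Psmb3, Psmb5, Psmc1, Psmd2, Psmd11 and Psme2) had an annotated copy elsewhere in the genome, with at least 95% identity over at least 150 bases, and how reads that fit several places were counted is not given in the sources used here. Of these 9, 5 rose at 1 day, with a median log2 fold change of 0.39. Of the 36 without such a copy, 12 rose and 2 fell, with a median of 0.22, and Psmd6 and Psmb4 are among them. Psmb7, Psmd1, Psmd13 and Psmg3 share transcribed bases with an overlapping gene. The values of all these genes are uncertain to that extent, and the part of copies and overlaps in the result was not tested.

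**Figure D2:**
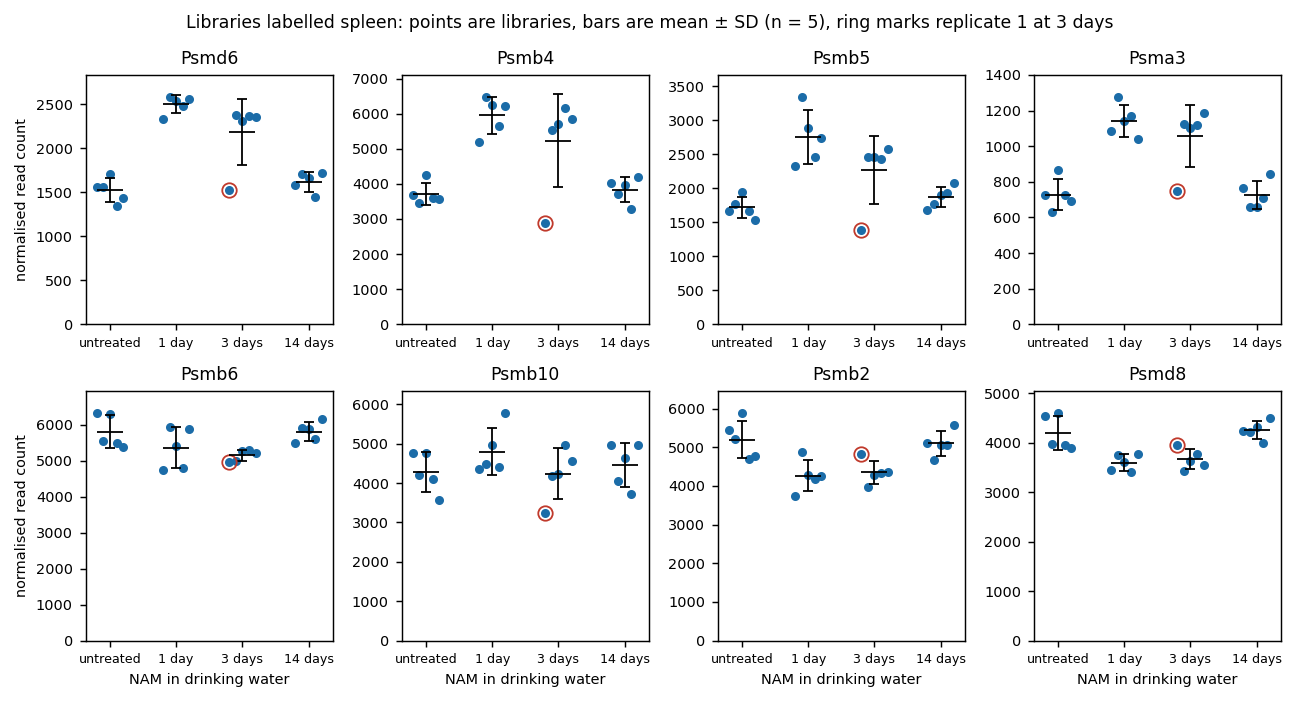
Normalised read count (y axis, from 0) of 8 members in each of the 20 libraries labelled spleen by group, with mean and SD (n = 5). Psmd6, Psmb4, Psmb5 and Psma3 are high at 1 day and in 4 of 5 libraries at 3 days, and replicate 1 at 3 days, which is ringed, lies near the untreated level.

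After 3 days, 5 members passed, all higher, and 40 did not (limma, adjusted over 18243 genes). Over all genes 2.82% were called higher and 2.74% lower. The 5 were Psma3, Psmd6, Psmd5, Psmd14 and Psma6, which had also risen at 1 day, and both comparisons share the untreated libraries.

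The counts of Psmd6 at 3 days were 1522, 2376, 2311, 2366 and 2358 for replicates 1 to 5, and those of Psmb4 were 2893, 5534, 5709, 6169 and 5849.7. Those of Psma3 were 748, 1125, 1102, 1119.7 and 1185, and those of Psmb5 were 1388, 2466, 2462, 2432 and 2583. In each of these genes replicate 1 lay within or under the untreated range and the other 4 lay above it. Psmb2, which had fallen at 1 day, stood at 4814, 3979.7, 4276, 4344 and 4352, and here replicate 1 was the highest of the 5.

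With all 5 libraries, the change of Psma3 at 3 days was 0.52 ± 0.11 on the log2 scale (limma adjusted p of 0.0139) and that of Psmd6 was 0.51 ± 0.10 (limma adjusted p of 0.0114). Psmd5 changed by 0.38 ± 0.10 (limma adjusted p of 0.0302) and Psmd14 by 0.30 ± 0.07 (limma adjusted p of 0.0187). Without replicate 1, limma called 21 members, 19 higher and 2 lower, where it called 15.3% of 18230 genes, and the median over the members was 0.20 in place of 0.14. Without it Psmd6 had 0.63 ± 0.07, Psma3 0.64 ± 0.09, Psmd5 0.50 ± 0.07 and Psmd14 0.35 ± 0.07 (limma adjusted p of 5.58e-06, 8.88e-05, 6.79e-05 and 0.00147). Psmb4 moved from 0.45 ± 0.15 (limma adjusted p of 0.0753) to 0.65 ± 0.08 (limma adjusted p of 2.49e-05). Psmb2 moved from -0.25 ± 0.08 (limma adjusted p of 0.0532) to -0.29 ± 0.08 (limma adjusted p of 0.0137). Leaving out replicate 3 or replicate 5 at 3 days left 1 call each, replicate 4 left 2 and replicate 2 left 3, leaving out untreated replicate 1, 2, 4 or 5 left 3 each, and a fit of the untreated and 3-day libraries alone left 0.

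After 14 days 0 members passed in limma, at an adjusted or at an unadjusted p under 0.05 (the latter held for 2.80% of genes), and edgeR and DESeq2 also called 0. Over all genes limma called 0.0% in either direction. The member median was 0.02, and values ran from -0.06 for Psmd9 to 0.12 for Psmb5. The smallest p-values were those of Psmd5, at 0.11 ± 0.10, and Psmd6, at 0.09 ± 0.10 (limma adjusted p of 1 for both). Psmd6 stood at 1584, 1702, 1663, 1441 and 1716, across the untreated range, with a 95% interval of its log2 fold change from -0.12 to 0.30.

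Set directly against 1 day, the 14-day libraries had 13 members lower and 2 higher (limma, adjusted over 18243 genes), while 5.41% of all genes were lower and 5.22% higher. The lower ones included Psma3 at -0.65 ± 0.11 (limma adjusted p of 0.00243), Psmb4 at -0.64 ± 0.15 (limma adjusted p of 0.0106) and Psmd6 at -0.62 ± 0.10 (limma adjusted p of 0.00192). The higher ones were Psmb2, at 0.26 ± 0.08 (limma adjusted p of 0.0325), and Psmd8, at 0.24 ± 0.06 (limma adjusted p of 0.0153), the same members that had fallen at 1 day. The call of Psmb2 was lost in 11 of 18 alternatives, 8 of them the leaving out of a single library (replicate 1, 3, 4 or 5 of either group), and that of Psmd8 in 0 of 18. The 1-day libraries enter both comparisons.

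The second principal component of all tested genes under the spleen label, members included, held 13.6% of the variance. It put 9 libraries on one side, namely the 5 at 1 day and replicates 2 to 5 at 3 days. The other 11 lay on the opposite side, and the first component is not described here. The mean of the members per library, as a log2 difference from the untreated mean, was 0.10 to 0.29 at 1 day, -0.09 in replicate 1 and 0.15 to 0.24 in the others at 3 days, and -0.12 to 0.16 in untreated libraries. These means overlapped between untreated and 1 day, whereas Psmd6 did not. The share of mitochondrial reads was 4.85% to 8.21% at 1 day, 8.92% to 9.85% in untreated libraries and 8.44% to 11.9% at 14 days, and its part in the changes of the members was not tested.

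Unequal changes of subunits can be read as a ratio of genes within a library, which no scaling changes. The ratio of Psmb4 to Psmb2 counts was 0.662 to 0.765 in untreated libraries and 1.33 to 1.46 at 1 day, and at 14 days it was 0.647 to 0.794. The ratio of Psmd6 to Psmd8 was 0.340 to 0.392 untreated, then 0.675 to 0.727 after 1 day, and after 14 days 0.360 to 0.403. That of the catalytic subunits Psmb5 and Psmb6 was 0.265 to 0.320, 0.466 to 0.561 and 0.300 to 0.346. In all 3 ratios the untreated and 1-day libraries did not overlap, although Psmb6 itself did not pass the test. The pairs were picked with the changes of these genes known and carry no test. Under the lymph node label Psmb4 to Psmb2 was 1.23 to 1.24 untreated, 1.15 to 1.20 at 1 day, and after 3 and 14 days 1.19 to 1.23 and 1.18 to 1.24, nearer to the raised ratio of the spleen label than to its untreated one.

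**Figure D3:**
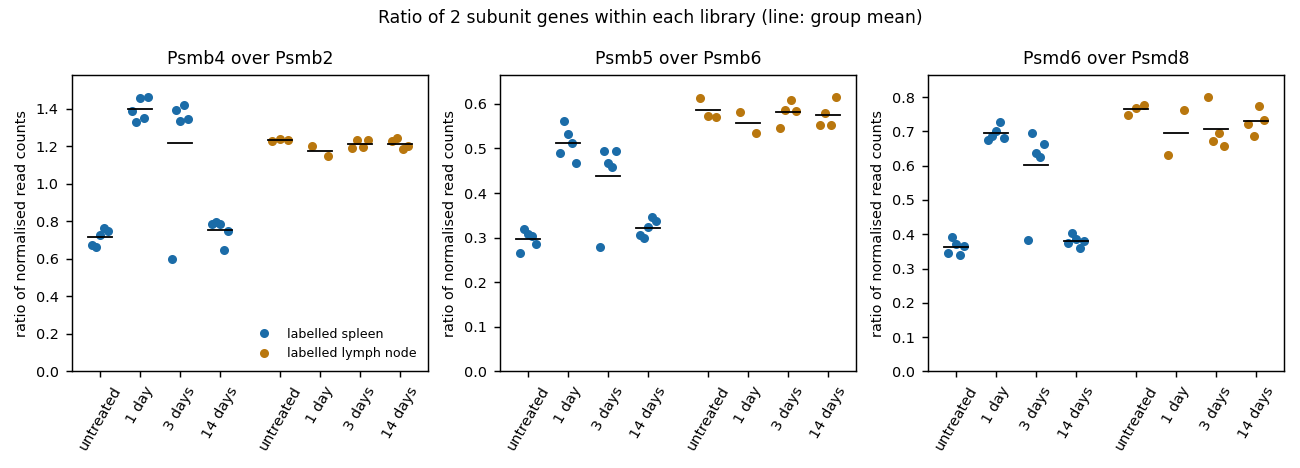
Ratio of normalised read counts of a pair of members within each library (y axis, from 0), by group and tissue label (points are libraries, lines are group means). Under the spleen label the 1-day libraries and 4 of 5 at 3 days lie above the untreated ones in each of the 3 pairs.

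Under the lymph node label no member passed at any time. At 1 day limma called 0 of 45, with 3 (6.67%, against 14.97% of all genes) at an unadjusted p under 0.05, and edgeR and DESeq2 called 0. Over all 18215 genes 0.884% were called higher and 0.329% lower. The member median was 0.07. In 13 members both treated libraries lay above all untreated ones and in 1 under them, against 17.1% and 15.5% of genes. The smallest p-values were those of Psme4, at 0.28 ± 0.11 (limma adjusted p of 0.245; 0.43 without 1-day replicate 1 and 0.12 without replicate 2), and Psmc3, an ATPase, at 0.18 ± 0.07 (limma adjusted p of 0.249).

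At 3 days limma called 0 members, while 0.335% of genes were called higher and 0.906% lower, and the member median was 0.07. At an unadjusted p under 0.05 there were 6 members, or 13.3%, against 14.8% of all genes. In 7 members the groups were apart with the treated libraries higher and in 1 lower, against 8.09% and 7.25% of genes. Psme3 had -0.23 ± 0.08 (limma adjusted p of 0.181) and Psmc3 0.16 ± 0.06 (limma adjusted p of 0.219). At 14 days limma called 0, while 0.11% of genes were called higher and 0.681% lower, and the median was -0.01. At an unadjusted p under 0.05 there were 4 members, or 8.89%, against 11.8% of all genes. Psma5 had -0.22 ± 0.08 (limma adjusted p of 0.273) and Psme3 -0.18 ± 0.08 (limma adjusted p of 0.378). From 3 to 14 days limma called 0, while 0.0% of genes were called higher and 0.011% lower, and at an unadjusted p under 0.05 there were 2 members, or 4.44%, against 5.84% of all genes. In these 3 comparisons edgeR and DESeq2 called 0 members too. In the last, 40 of the 45 members had a negative value, with a median of -0.07 beside 0.00 for all genes, and Psmb10 had the smallest p, at -0.20 ± 0.07 (limma adjusted p of 0.622).

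**Figure D4:**
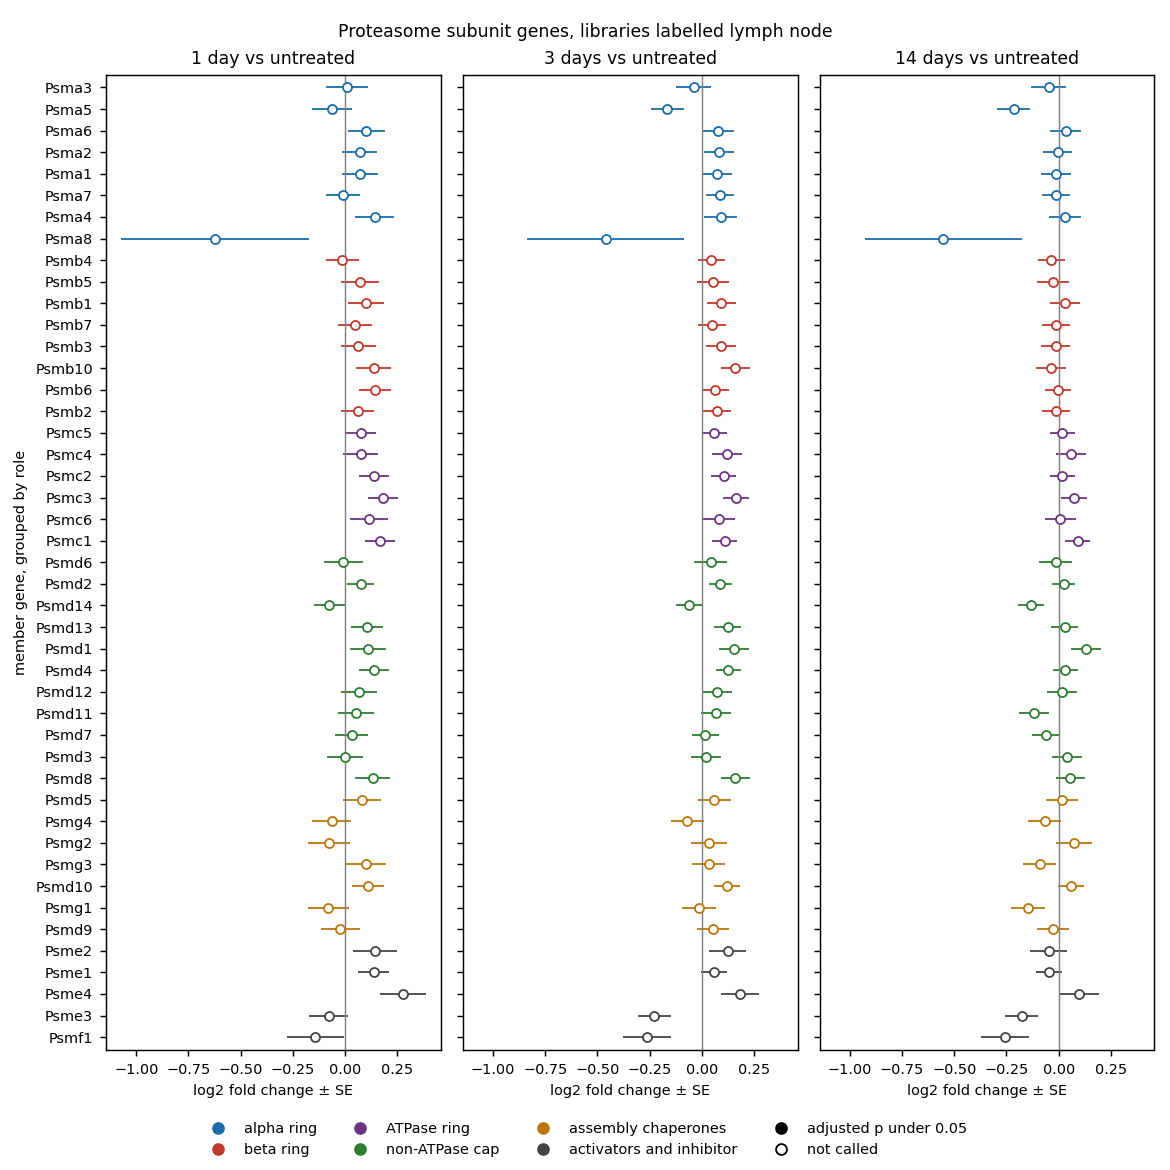
Log2 fold change (x axis, with its standard error) of the 45 tested members (y axis, grouped by role) against untreated in the libraries labelled lymph node (n = 3 untreated, then n = 2, 4 and 4 in order of duration). No point is filled, since 0 members passed an adjusted p of 0.05.

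Psmd6 stood at 3402, 3616 and 3481 in the untreated libraries labelled lymph node, then at 3444 and 3507 after 1 day, at 3905, 3558, 3758 and 3221 after 3 days and at 3149.6, 3237, 3804 and 3709 after 14 days. All groups overlapped. Psma5 stood at 1172, 1298 and 1311 untreated, then at 1231 and 1181 after 1 day, at 1146, 1207, 1171 and 979 after 3 days and at 1048, 1065, 1166 and 1061 after 14 days. Its 14-day libraries all lay under the untreated ones, as did those of 3 members in all, against 6.02% of genes, and 0 members lay above, against 5.49%.

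The change at 1 day was compared between the labels in a single limma fit. Of the 45 members 3 changed more under the spleen label and 0 less, against 0.811% and 0.881% of 17147 genes. Psmd6 differed by 0.73 ± 0.16 (limma adjusted p of 0.0183), Psma5 by 0.61 ± 0.16 (limma adjusted p of 0.0459) and Psmd14 by 0.45 ± 0.11 (limma adjusted p of 0.0336). The count was 0 without either 1-day library of the lymph node label, where the lone library left is assumed to vary like the other groups, or without its untreated replicate 2, and 1 without its untreated replicate 1 or 3 or without replicate 4 at 1 day of the spleen label. A fit with the replicate number as a block also left 1. For the other 42 members a difference was not shown, among them Psmb4 at 0.69 ± 0.22, with a 95% interval from 0.25 to 1.14 (limma adjusted p of 0.0871). For the change at 3 days limma called 0 members and, over all genes, 0.525% as more and 0.21% as less. At an unadjusted p under 0.05 there were 11 members, or 24.4%, against 13.1% of all genes. Of the members edgeR called 1 and DESeq2 3, and without replicate 1 at 3 days of the spleen label limma called 10. The shares of all genes called in these other fits are not given here. For the change at 14 days limma, edgeR and DESeq2 called 0 members, and limma called 0.134% of genes as more and 0.00583% as less. At an unadjusted p under 0.05 in limma there were 0 members, against 4.85% of all genes.

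Members with a large log2 fold change at 1 day under the spleen label tended to be those with a higher level under the lymph node label. The level difference was taken as the untreated libraries labelled lymph node minus the 14-day libraries labelled spleen, on the log2 scale, so that it shares no library with the change at 1 day. Over 45 members Spearman's rho was 0.75 (Pearson's r of 0.67), and over 17147 genes it was 0.17 (r of 0.07). Genes are not independent and all points come from the same libraries, so this is a description. The labels were scaled separately, which moves all level differences by a constant. Psma3 had the largest level difference, 1.56, with a log2 fold change of 0.65, Psmd6 had 1.11 and 0.72, and Psmb2 had 0.38 and -0.29.

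**Figure D5:**
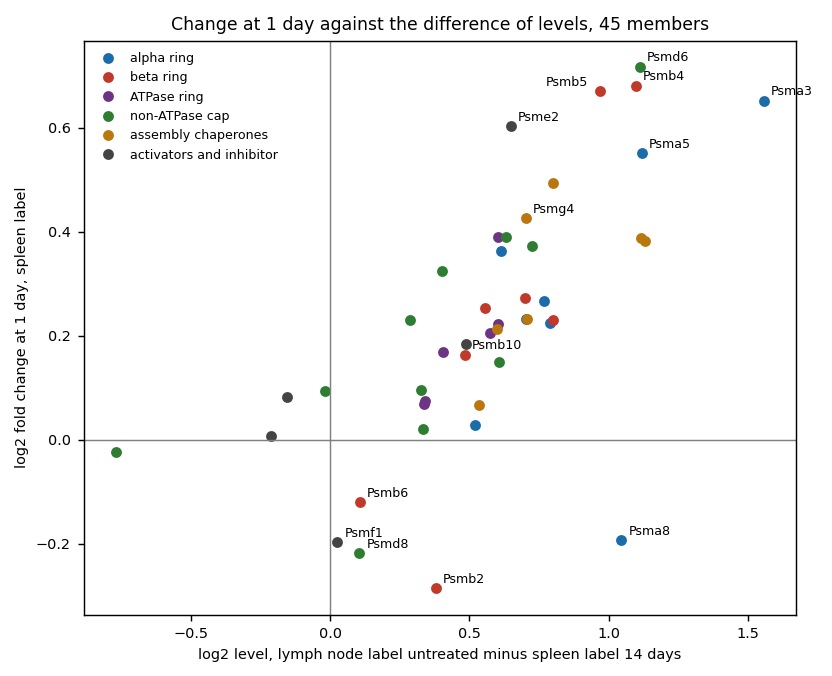
Log2 fold change at 1 day under the spleen label (y axis) against the log2 level difference of untreated libraries labelled lymph node minus 14-day libraries labelled spleen (x axis), for 45 members coloured by role. Points rise from left to right (Spearman's rho of 0.75), and Psma8, at a level difference of 1.05, lies under the others of like level.

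Other genes of the pathway were taken from a list of 30 that are not members, 29 of which were tested. At 1 day under the spleen label 11 were higher and 2 lower, with a median of 0.18, beside 8.56% and 8.05% of all genes. Pomp, the maturation factor of the core, rose from 3561 ± 372 to 5249.6 ± 621 normalised counts (SD, n = 5), a log2 fold change of 0.56 ± 0.11 (limma adjusted p of 0.00244). Usp14 and Uchl5, deubiquitinases of the cap, rose by 0.34 ± 0.08 and 0.35 ± 0.07 (limma adjusted p of 0.0058 and 0.00299), and Vcp, the ATPase that pulls ubiquitinated proteins from complexes and membranes, by 0.38 ± 0.08 (limma adjusted p of 0.0048). Rps27a, which encodes ubiquitin fused to a ribosomal protein, had 0.71 ± 0.18 (limma adjusted p of 0.0103).

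The shuttle factors Rad23b and Ubqln2, which bring ubiquitinated proteins to the cap, fell, with log2 fold changes of -0.43 ± 0.10 and -0.27 ± 0.06 (limma adjusted p of 0.00656 and 0.00481). Nfe2l1, the transcription factor known to drive proteasome genes when the protease is inhibited, had 0.18 ± 0.09 and did not pass (limma adjusted p of 0.163), and neither did Nfe2l2, at -0.06 ± 0.09 (limma adjusted p of 0.688). Ngly1 and Ddi2, known to process Nfe2l1, rose by 0.42 ± 0.08 and 0.47 ± 0.12 (limma adjusted p of 0.00291 and 0.0122), with Ddi2 taken from the first of the 2 rows that carry its symbol. At 3 days 4 of the 29 were higher and 2 lower, beside 2.82% and 2.74% of all genes. Without replicate 1 there were 10 and 3, where 15.3% of all genes were called. At 14 days 0 passed. At 14 days against 1 day 10 were lower and 2 higher, beside 5.41% and 5.22% of all genes. Under the lymph node label limma called 0 of the 29 at 1 and at 14 days.

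Under the spleen label, adipocyte markers summed over 6 genes ranged from 19143 to 97470.1 normalised counts untreated and from 67758 to 294872 at 1 day, with 1 of 6 higher by limma. Plasma cell markers summed to 12058 to 26669 and 17088 to 24650.1 (1 of 6 higher), cycling markers to 2899.6 to 3639 and 3008 to 4045 (0 of 6), and skeletal muscle markers to 339 to 414 and 297 to 403 (1 of 3 tested lower). Erythroid markers were at 46.7 to 127 and 107 to 256 (0 of 2 tested), with Epb42 at 0. Under the lymph node label, sums of erythroid markers ranged from 19636 to 31162 untreated and from 13318 to 20158 after 1 day (0 of 6 called by limma). After 3 days they ranged from 2194 to 11785 (6 of 6 lower) and after 14 days from 9008 to 13528 (2 of 6 lower). The part of cell composition in the values of the members was not tested.

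Transcript length and GC content were known for all 45 members. Spearman's rho with the log2 fold change at 1 day under the spleen label was -0.21 for length and -0.05 for GC content across members, and -0.16 and -0.10 across the 15041 tested genes with a value.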

How the data were processed

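The authors aligned paired-end polyA reads to mm10 with STAR 2.4.0, counted them per gene on an annotation of GenoSplice and divided the counts by DESeq2 size factors, so that the deposited values are a signal (normalised read counts) and not counts. The libraries of each tissue label were scaled separately. How strand and multiply mapping reads were handled is not given in the sources used here. All values were rounded to whole multiples of 1 read per library. The lower values were such multiples in 100% of cases (tolerance 0.01), and the higher ones were not checked. These whole reads gave the depths and the count tests. All table columns matched a sample.

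Groups came from the labels. Genes with a mean of at least 10 were tested by limma 3.58.1 on log2(value + 1) with an intensity trend, two-sided and Benjamini-Hochberg adjusted, with all 4 groups of a label in 1 fit and all 8 for differences between labels. Alternatives were another pseudocount of 5, no filter, TMM, library weights, a replicate block, only the groups compared, each library left out, an unadjusted p with a 1.5-fold change, and count tests of the recovered reads in DESeq2 1.42.0 or edgeR 4.0.16. The code was tested on simulated data. No 2 libraries of a group were identical.

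The members and the lists of pathway and marker genes were chosen with earlier results of these data known. Full statistics were given for the called members that rose most (4) or fell most (4) in each comparison with untreated (or the 2 with the smallest p where fewer than 2 were called), for a fixed list of catalytic subunits, activators, chaperones and ubiquitin receptors, and for members that a comparison turned on. R 4.3.3 and Python 3.11.15 were used. One result for a pathway gene at 3 days under the lymph node label is not reported here.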

Additional observations from a re-analysis of the deposited data

Results flagged for a closer look

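In the libraries labelled spleen, replicate 1 at 3 days stood far from the other 4 of its group. Its normalised count was 1522 for Psmd6 (2311 to 2376 in the others), 2893 for Psmb4 (5534 to 6169), 748 for Psma3 (1102 to 1185), 1388 for Psmb5 (2432 to 2583) and 486 for Psma5 (704 to 777), and its mean over the members was -0.0906 (0.15 to 0.24). Other libraries stood apart in 1 gene each, namely untreated spleen replicate 3 in Psmb4 (4255 against 3453 to 3674), lymph node replicate 3 at 14 days in Psma5 (1166 against 1048 to 1065) and lymph node replicate 4 at 3 days in Psmb6 (6264 against 6603 to 6660.3). Of 66 sets of values examined 9 held such a library, 6 of them through the same one. Chance gives about 1 in 20 for independent sets. These sets share libraries and include a mean over the members, so the count cannot be set against that rate.

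The change at 1 day differed between the labels by 0.73 for Psmd6, 0.61 for Psma5 and 0.45 for Psmd14 on the log2 scale, tested in limma as a difference of differences.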

How the results depend on the processing

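At 1 day under the spleen label the count of 19 members stayed within 1.5 times under the alternatives except an unadjusted p with a 1.5-fold change, which left 5, and leaving out single libraries gave 14 to 24. Of the 19, 12 were called in all 18 alternatives other than that rule, and no called member changed sign in them. At 3 days the count of 5 became 8 with TMM, 28 with library weights, 0 with only the groups compared, 8 in edgeR, 14 in DESeq2 and 0 with the 1.5-fold rule, and leaving out single libraries gave 1 to 21. At 14 days against 1 day the count of 15 became 4 with the 1.5-fold rule and 11 to 15 without single libraries. The difference between labels at 1 day, with 3, became 1 without a filter, 12 with library weights, 6 in DESeq2, 5 with the 1.5-fold rule and 0 to 4 without single libraries. That at 3 days, with 0, became 1 with TMM, 15 with library weights, 1 in edgeR, 3 in DESeq2 and 0 to 10 without single libraries. The cause of these shifts was not tested. For most of these fits the share of all genes called is not given, so these counts cannot be set against the background. The other comparisons stayed at 0 members.

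With the replicate number as a block the counts were 17 at 1 day, 5 at 3 days and 13 at 14 days against 1 day under the spleen label, and 1 for the difference at 1 day. Deviations of same-numbered libraries had correlations of -0.50 to 0.47 for the spleen label and -0.11 to 0.08 for the lymph node label. Those of differently numbered libraries had -0.56 to 0.55 and -0.10 to 0.11. These ranges cannot show whether a number marks a shared animal or batch. No source says that it does, so the numbers were not taken to pair samples.

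Psme3 and Psma8, not called at 1 day, changed sign. Psme3 ran from -0.0535 to 0.0611 without single libraries. Psma8 ran from -0.378 to 0.037 without single libraries and was 0.19 with library weights. Limits include the 2 libraries at 1 day under the lymph node label, replicate 1 at 3 days under the spleen label, without which the count there was 21, the tissue labels that markers contradict, and the depth of Psma8.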
